A study of Mus musculus with 33 samples.

Results

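The 37 genes described here encode the 2 arms of MHC antigen presentation in the mouse, 15 of class II and 22 of class I, out of 32285 genes listed in every matrix. They were taken from a fixed list of names, chosen with earlier results of these data known, and all 37 were found by symbol. The cells came from SAMENT, a sortase-based method in which tumour cells tag the cells they meet with biotin, so that a biotin positive sort holds the tagged neighbours and a biotin negative sort the other cells of the same tissue. For the intracardiac injection there were 4 positive and 4 negative samples from each of 4 tissues, bone (femurs and tibias), brain, liver and lung, all taken after the same overnight labelling of about 10 hr. After an injection labelled IIA, which the labels do not spell out, 1 pooled bone matrix was split by its hashtags into 6 positive and 6 negative samples. The labels give no strain, age, sex or tumour line, and they do not say whether the samples of a group came from separate animals, so the p-values below measure the spread between these samples only.

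Intracardiac samples held 497940 to 44874529 unique molecular identifiers (UMIs, 1 per captured RNA molecule) and a median of 2606 to 11313.5 per kept cell. After filtering, 55366 of 57065 intracardiac and 22362 of 26666 IIA barcodes were kept, and the levels below are in CPM, UMIs of a gene per 1000000 UMIs of the same cells. Cells were clustered without any of the 37 genes and named from marker lists, so "dendritic cells" and the like stand for clusters with those markers. As a check of the tissue labels, microglia reached 20 cells in a sample only in brain and alveolar macrophages only in lung. Intracardiac libraries read the 3′ end of transcripts and IIA libraries the 5′ end, so levels were not compared between them.

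MHC class II molecules carry peptides from taken-up material to CD4+ T cells. Their alpha and beta chains are held by the invariant chain CD74, loaded with the help of H2-DM and restrained by H2-DO, and their genes are switched on by CIITA working with the RFX complex (RFX5, RFXAP, RFXANK) at an X and Y box in their promoters. Class I molecules, a heavy chain with B2M, carry peptides cut by the proteasome to CD8+ T cells; TAP1 and TAP2 bring the peptides into the endoplasmic reticulum, where ERAP1, tapasin, calreticulin, calnexin and PDIA3 help to trim and load them, and NLRC5 is the class I counterpart of CIITA. Dendritic cells, B cells and activated macrophages are the usual class II cells, while nearly all nucleated cells make class I.

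Of the 37 genes, 22 lie on chromosome 17 between 33915899 and 37274484 (mm10), the mouse MHC; among the others, Ciita is on chromosome 16 and B2m on chromosome 2. Promoter sequences, 250 bases before to 50 after the start, were in the RefSeq table (GRCm38.p6) for 31 of the 37. An X box core (CTNGCAAC, either strand) was in 5 of those 31 windows, against 3.42% of all 32851 promoters, and a Y box (CTGATTGG, either strand) in 12, against 4.10%. Both were in H2-Aa, H2-Eb1, H2-Eb2 and H2-D1, against 0.180% of all promoters. In H2-Aa and H2-Eb1 the X box core (first base at −84 and −94) lay before the Y box (−51 and −62). In H2-Eb2 the Y box (−103) lay before the X box core (−12). In H2-D1 both (X box core at −212, Y box at −53) were on the other strand. The windows of Tap1 and Psmb9, which start from shared DNA in opposite directions, share 275 of their 300 bases. Their Y box matches are the same bases, counted once for each gene among the 12. The 200 bases before the start of 2 class II chains and of H2-Ob, a chain of the H2-DO restraint, follow, 5′ to 3′, to show a window with both elements beside one with a single match. Capitals mark the X box core and the Y box in the 2 chains, and in H2-Ob the X box core alone.
H2-Aa (chr17:34287824-34288023, minus strand): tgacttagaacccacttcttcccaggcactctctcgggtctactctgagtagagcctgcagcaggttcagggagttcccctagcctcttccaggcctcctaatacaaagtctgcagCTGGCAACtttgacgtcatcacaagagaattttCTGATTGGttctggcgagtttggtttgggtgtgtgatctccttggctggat
H2-Eb1 (chr17:34305667-34305866, plus strand): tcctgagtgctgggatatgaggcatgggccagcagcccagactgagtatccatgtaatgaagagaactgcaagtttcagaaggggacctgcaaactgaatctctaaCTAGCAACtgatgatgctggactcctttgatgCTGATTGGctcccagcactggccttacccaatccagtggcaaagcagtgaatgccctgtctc
H2-Ob (chr17:34238705-34238904, plus strand): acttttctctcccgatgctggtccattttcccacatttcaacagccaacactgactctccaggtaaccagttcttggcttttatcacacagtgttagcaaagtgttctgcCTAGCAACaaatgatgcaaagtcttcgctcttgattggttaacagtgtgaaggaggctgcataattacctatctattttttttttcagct

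Other elements were found in some of the class I windows. A kappa B site (searched on both strands) was in the windows of H2-K1, H2-D1 and H2-Q6, 3 of the 31, against 0.475% of all promoters, and an interferon response element (searched on both strands) in those of B2m, Erap1, H2-T22, H2-T23 and Psme1, against 3.44%. A match is a description of letters, not of a bound site. In the 2 classical heavy chains below, capitals mark kappa B sites and, in H2-D1, a Y box read on the other strand.
H2-K1 (chr17:34000348-34000547, minus strand): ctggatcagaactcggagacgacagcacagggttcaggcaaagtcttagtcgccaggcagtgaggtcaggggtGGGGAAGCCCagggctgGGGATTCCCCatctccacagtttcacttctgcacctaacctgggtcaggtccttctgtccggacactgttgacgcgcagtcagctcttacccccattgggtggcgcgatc
H2-D1 (chr17:35262894-35263093, plus strand): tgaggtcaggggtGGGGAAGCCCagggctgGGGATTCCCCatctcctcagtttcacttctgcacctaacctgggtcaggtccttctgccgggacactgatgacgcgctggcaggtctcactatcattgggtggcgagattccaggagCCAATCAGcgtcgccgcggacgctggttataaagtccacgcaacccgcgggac

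Class II transcripts were concentrated in a few cell classes. The 15 class II genes summed to 17655 ± 392 CPM (SD, n = 2) in dendritic cells of negative bone, 38910 ± 4316 (n = 4) in brain, 34837 ± 5158 (n = 3) in liver and 39382 ± 10075 (n = 4) in lung. Bone thus lay below the other 3 tissues, but only 2 of its samples, at 17378 and 17933, held 20 or more dendritic cells. B cells had from 19855 ± 4235 in negative bone to 22607 ± 5025 in negative lung (n = 4 each), and those groups overlapped. Plasmacytoid dendritic cells had 4591 ± 1484 in negative bone and 7986 ± 1484 in negative liver (n = 3 each).

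Among phagocytes the class II sum differed by class and tissue. Negative macrophages had 6647 ± 1626 in lung (n = 4) and 22906 ± 6037 in brain (n = 3). In negative liver, replicate 1 was at 24430.5 from 21 cells while the other 3 samples, at 3130 to 4740, were below every brain sample. Monocytes stood at 1422 ± 111 in negative bone and 2796 ± 1918 in negative brain (n = 4 each), the latter spread by 1 sample, replicate 2. Neutrophils had 95.2 ± 26.8 in negative bone and 155 ± 89.4 in negative lung (n = 4 each). T cells, which do not normally make class II in the mouse, had 461 ± 200 to 665 ± 538 over the 4 negative groups (n = 4 each), so a level in that range cannot be told apart from free RNA. Neutrophils were below it and monocytes above it.

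**Figure D1:**
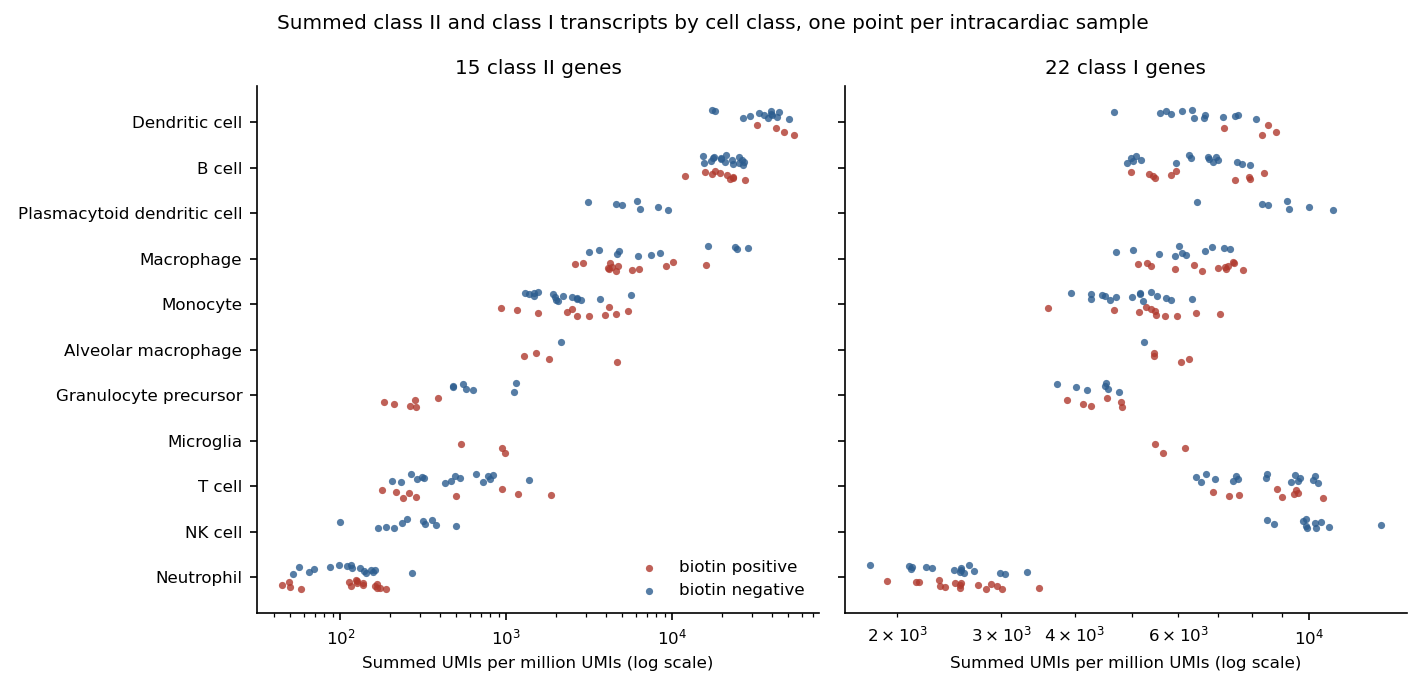
Summed CPM of the 15 class II (left) and 22 class I genes (right) in each cell class, with 1 point per intracardiac sample holding at least 20 cells of the class, coloured by biotin sort, on a log axis. Class II spans from about 100 in neutrophils to at least 17378 in dendritic cells, while the class I sums lie closer together.

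Single class II genes did not share one order of cell classes; the levels that follow are from negative liver, where most classes had 3 or 4 samples. H2-Aa, an alpha chain, stood at 6845 ± 842 CPM in dendritic cells (n = 3), 4009 ± 757 in B cells (n = 4), 318 ± 134 in monocytes (n = 4) and 16.9 ± 6.79 in neutrophils (n = 4). Cd74, the invariant chain, followed the same order, at 14151 ± 2617, 10732 ± 1799, 751 ± 257 and 43.2 ± 18.7. Ciita, the master regulator, was at 191 ± 36 in dendritic cells and 173 ± 46.8 in B cells, within each other's spread, and at 10.4 ± 5.23 in monocytes and 0.447 ± 0.566 in neutrophils. Macrophages had 26.4 ± 43.3, an SD larger than the mean (n = 4), since replicate 1 stood apart.

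The H2-DO chains and H2-Eb2 were higher in B cells than in dendritic cells. H2-Ob was at 398 ± 52.6 in B cells and 85.9 ± 12.3 in dendritic cells, and H2-Oa, its partner, at 265 ± 92.1 and 140 ± 48.4. H2-Eb2, a second beta chain, was at 107 ± 31.1 against 10.5 ± 3.43. The 2 beta chains of the H2-DM loading factor split: H2-DMb2 was higher in B cells, at 328 ± 87.1 against 101 ± 34.2, and H2-DMb1 higher in dendritic cells, at 503 ± 85.5 against 84 ± 19.5. Ifi30, the thiol reductase GILT that opens disulphide bonds of antigens, was not confined to class II cells: it reached 1149 ± 128 in dendritic cells, 878 ± 56.2 in monocytes and 763 ± 152 in macrophages, against 389 ± 176 in B cells and 13.1 ± 5.29 in neutrophils. Rfxap, a subunit of the RFX complex, was nearly flat, between 15.6 in neutrophils and 34.6 in the highest class.

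Class I sums were high in NK cells, T cells and plasmacytoid dendritic cells. The 22 class I genes summed to 9192 ± 975 (n = 2) to 10526 ± 1941 (n = 4) in NK cells and 8019 ± 1375 to 8714 ± 1532 (n = 4 each) in T cells of the negative groups. Plasmacytoid dendritic cells reached 10076 ± 866 in negative liver (n = 3), dendritic cells 5546 ± 618 to 7236 ± 508 and B cells 6161 ± 1249 to 6622 ± 1447. Neutrophils were lowest, from 2152 ± 179 in positive bone to 2987 ± 298 in negative lung (n = 4 each). NK and T cells overlapped.

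In negative liver the heavy chain H2-K1 was at 2169 ± 405 in NK cells, 1687 ± 439 in T cells, 1056 ± 285 in B cells and 210 ± 22.3 in neutrophils (n = 4 each). H2-D1, the other classical heavy chain, did not fall away in the same manner: neutrophils had 1175 ± 126, against 1476 ± 285 in T cells and 2050 ± 305 in NK cells. The non-classical heavy chain H2-Q7 was at 690 ± 200 in NK cells, 574 ± 228 in T cells, 24.1 ± 14 in monocytes and 4.32 ± 1.13 in neutrophils. Nlrc5 was at 45.1 ± 8.48 in T cells and 39.8 ± 7.89 in NK cells, and between 3.25 and 14.3 in the other classes shown. Psmb8, an immunoproteasome subunit, and Psme1, of the PA28 proteasome cap, were highest in dendritic cells, at 685 ± 140 and 893 ± 144 (n = 3). The chaperones Calr and Pdia3 were highest in macrophages, at 795 ± 146 and 439 ± 54.6 (n = 4).

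**Figure D2:**
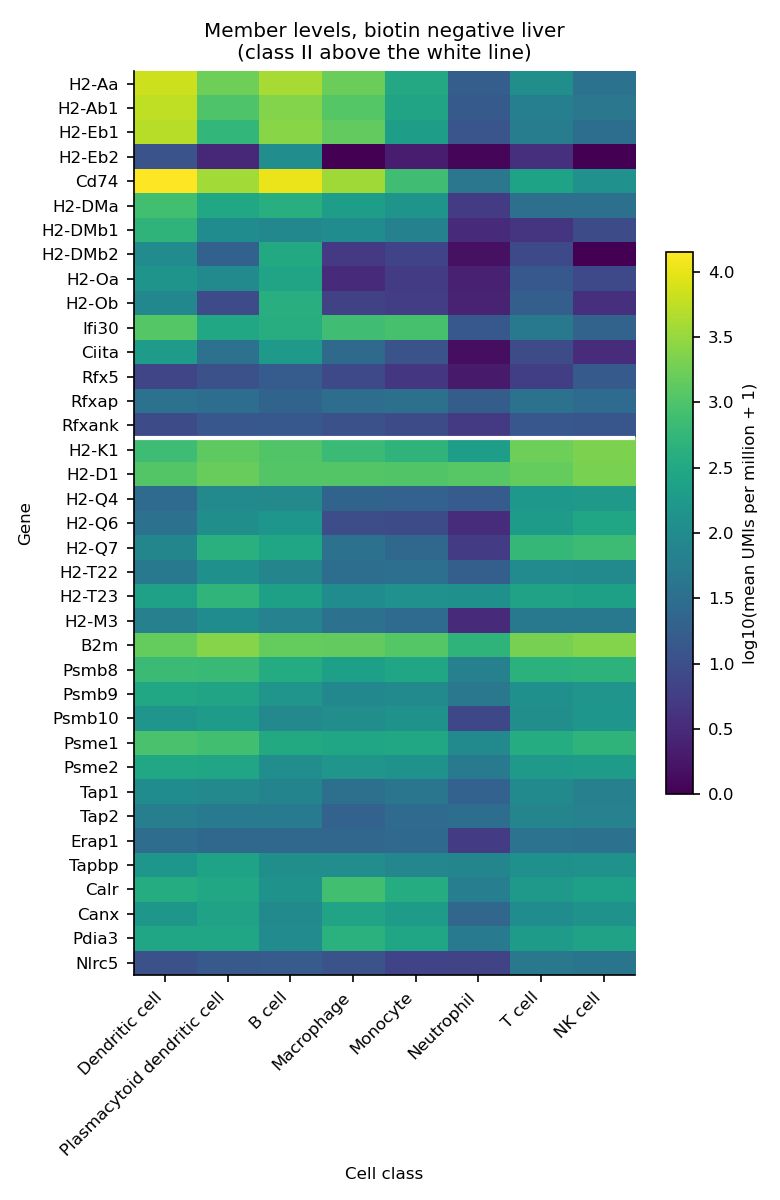
Mean level of each of the 37 genes in 8 cell classes of negative liver, as log10 of CPM plus 1, with class II above the white line. Cd74, H2-Aa, H2-Ab1 and H2-Eb1 are bright in dendritic and B cells, H2-Ob and H2-DMb2 in B cells, and H2-Q7 and Nlrc5 in T and NK cells.

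The question the sorts address is whether tagged neighbours of the tumour differ from other cells. Counts were summed per sample and compared with edgeR's quasi-likelihood test, with p-values adjusted by Benjamini-Hochberg over all genes tested and a call at an adjusted p (FDR) under 0.05. In bulk sums of all kept cells a fall can come from fewer cells of a type or from less RNA per cell, which cannot be told apart. Cells of the B, plasma, dendritic and plasmacytoid dendritic classes together made up a mean of 13.4% of kept cells in negative against 5.97% in positive bone, 16.8% against 4.32% in brain, 23% against 10.5% in liver, 14.9% against 4.19% in lung and 8.08% against 2.06% in IIA bone. Their part in the results over all kept cells was not tested beyond a refit without them.

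Over all kept cells, edgeR called none of the 37 genes in bone, brain or liver. The background there was 0% of all genes in bone and liver and 3.06% in brain. Unadjusted p was under 0.05 for 1, 5 and 3 of the 37, and over all genes for 983 of 12533, 2327 of 11064 and 1571 of 11854. DESeq2 called 0, 3 and 0 members, beside 0.423%, 11.1% and 3.64% of all genes. None of these shares of the members stood above the share of all genes by the same rule. With replicate number as a block, which pairs the samples of these 3 tissues, the calls were 0, 3 and 0; the 3 in brain, all lower, were Ifi30, Ciita and H2-Eb2, beside 6.89% of all genes called there with the block. Leaving out brain positive replicate 2 gave 1 call, beside 1.86% of all genes. The summed class II level was 1312 ± 1188 in negative against 1071 ± 897 in positive bone (n = 4 each). Brain had 4244 ± 2314 against 3500 ± 1629, and liver 5598 ± 1693 against 4207 ± 683. In each tissue the difference was smaller than the SD of the negative sort. That SD is the spread between samples and leaves out their pairing. Differences of this sum within pairs were not tested.

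Among the genes always reported, log2 fold changes (positive minus negative) in bone were −0.07 for H2-Aa, 0.04 for H2-Ab1, 0.12 for H2-Eb1, −0.39 for Cd74, −0.75 for Ciita, −0.03 for B2m, 0.08 for H2-K1, −0.43 for H2-D1, −0.19 for Tap1, −0.18 for Psmb8 and −0.34 for Nlrc5. In brain the first 5 were −0.54, −0.58, −0.41, −0.57 and −1.07, and the class I genes in the same order 0.46, −0.08, −0.43, −0.39, −0.49 and 0.03. In liver they were −0.63, −0.64, −0.72, −0.57 and −1.06, then 0.03, 0.00, −0.20, −0.38, −0.74 and −0.48. All of these missed the threshold in the fit without the replicate block. The median over the 37 genes was −0.19 in bone, −0.31 in brain and −0.46 in liver, against 0.01, −0.03 and 0.02 over all genes tested.

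In lung, 1 of the 37 genes rose and 2 fell over all kept cells, beside 11.5% higher and 6.8% lower among all genes. DESeq2 called 2 higher and 7 lower, beside 25.1% of all genes in either direction. With replicate number as a block, 1 rose and 13 fell, beside 2563 of 12331 genes called. Lung replicate 3 did not correlate best with its own number, so the pairing there is less sure. The values that follow are from the fit without the block. Canx, the chaperone calnexin, was at 377, 484, 256 and 197 CPM in the positive samples and 127, 106, 152 and 89.5 in the negative ones. Every positive sample was above every negative one, and the log2 fold change was 1.21 ± 0.24 (SE; edgeR FDR = 0.0115). Nlrc5, the class I regulator, fell, from 16.2, 10.7, 17.8 and 12.5 in negative to 9.07, 3.32, 5.14 and 10.7 in positive samples. The groups did not overlap, although the highest positive and the lowest negative sample were both at 10.7, and the log2 fold change was −1.26 ± 0.36 (edgeR FDR = 0.0401). Rfxap was at 16.2, 18.3, 16.5 and 22.5 in positive and 23.7, 23.5, 33 and 28.6 in negative samples, without overlap (−0.81 ± 0.18, edgeR FDR = 0.0186).

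Of the 3 lung calls made without the block, Canx kept its call in all 8 refits that left out a sample. Rfxap lost it when negative replicate 3 or 4 or positive replicate 1 or 2 was left out, with FDR up to 0.0635, and Nlrc5 without any of the 4 negative replicates or positive replicate 1 or 3, with FDR up to 0.109. The count itself went to 12 with negative replicate 2 left out, to 7 with positive replicate 4 left out and to 1 with either negative replicate 4 or positive replicate 1 left out. Of all genes, these 4 refits called 18.8%, 18.9%, 10.1% and 11.2%. When libraries were scaled to total UMIs in place of TMM, the split went from 1 higher and 2 lower to 2 higher and 0 lower, beside 18.2% of all genes in either direction. That scaling moved the median log2 fold change of all genes by 0.16 (bone) to 0.29 (brain) over all kept cells, and the fold changes here are relative to the TMM scale. In the fit without the block, the class II chains and Cd74 did not pass (−0.51 to −0.59 for H2-Aa, H2-Ab1, H2-Eb1 and Cd74). Nor did Ciita at −1.53, B2m at −0.11, H2-K1 at −0.46, H2-D1 at −0.47, Tap1 at −0.64 or Psmb8 at −0.63.

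In IIA bone, over all kept cells, 4 of 36 tested genes rose, all in class I, and 6 fell, 4 of class II and 2 of class I. Of all genes, 27% rose and 23.2% fell there, so these counts are below the background. The 3 endoplasmic reticulum chaperones led. Calr, calreticulin, ranged from 515 to 1173, median 786, in the 6 positive samples and from 187 to 222, median 203, in the 6 negative ones, without overlap (log2 fold change 1.72 ± 0.18, edgeR FDR = 1.32e-05). Pdia3, the disulphide isomerase of the loading complex, rose by 1.14 ± 0.12 and Canx by 0.98 ± 0.10, and Erap1, the trimming peptidase, by 0.68 ± 0.13, each without overlap between the groups.

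Of the 4 class II genes that fell in IIA bone, H2-Ob, H2-Oa and H2-DMb2 were higher in B than in dendritic cells of negative intracardiac liver. The part of B cells in their fall was not tested beyond the refit given below. H2-Ob ranged from 0.821 to 6.05 in positive and from 9.02 to 27.6 in negative samples, without overlap (−3.16 ± 0.44, edgeR FDR = 0.000119). H2-Oa fell by 2.62 on the log2 scale without overlap and H2-DMb2 by 2.02, and Ciita by 1.78 ± 0.62 (edgeR FDR = 0.0305). In the refit without B, plasma, dendritic and plasmacytoid clusters, which called 51.4% of all genes and 9 of the members, the call on Ciita was lost. It was also lost without negative replicate 2 or 4 or positive replicate 1, 4 or 6, with FDR up to 0.0758. H2-T23, a non-classical heavy chain, fell by 0.95 ± 0.23. Psmb9, an immunoproteasome subunit, fell by 0.31 ± 0.11 and lost its call without negative replicate 4 or 5 or positive replicate 1, 3, 4 or 6, with FDR up to 0.0647. With total UMIs in place of TMM the split was 7 higher and 5 lower, beside 57.9% of all genes. The abundant class II genes did not pass: H2-Aa stood at 0.19, H2-Ab1 at 0.07, H2-Eb1 at 0.33 and Cd74 at 0.14, nor did B2m at 0.20, H2-K1 at 0.21, H2-D1 at −0.20, Tap1 at −0.27, Psmb8 at −0.08 or Nlrc5 at −0.42.

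**Figure D3:**
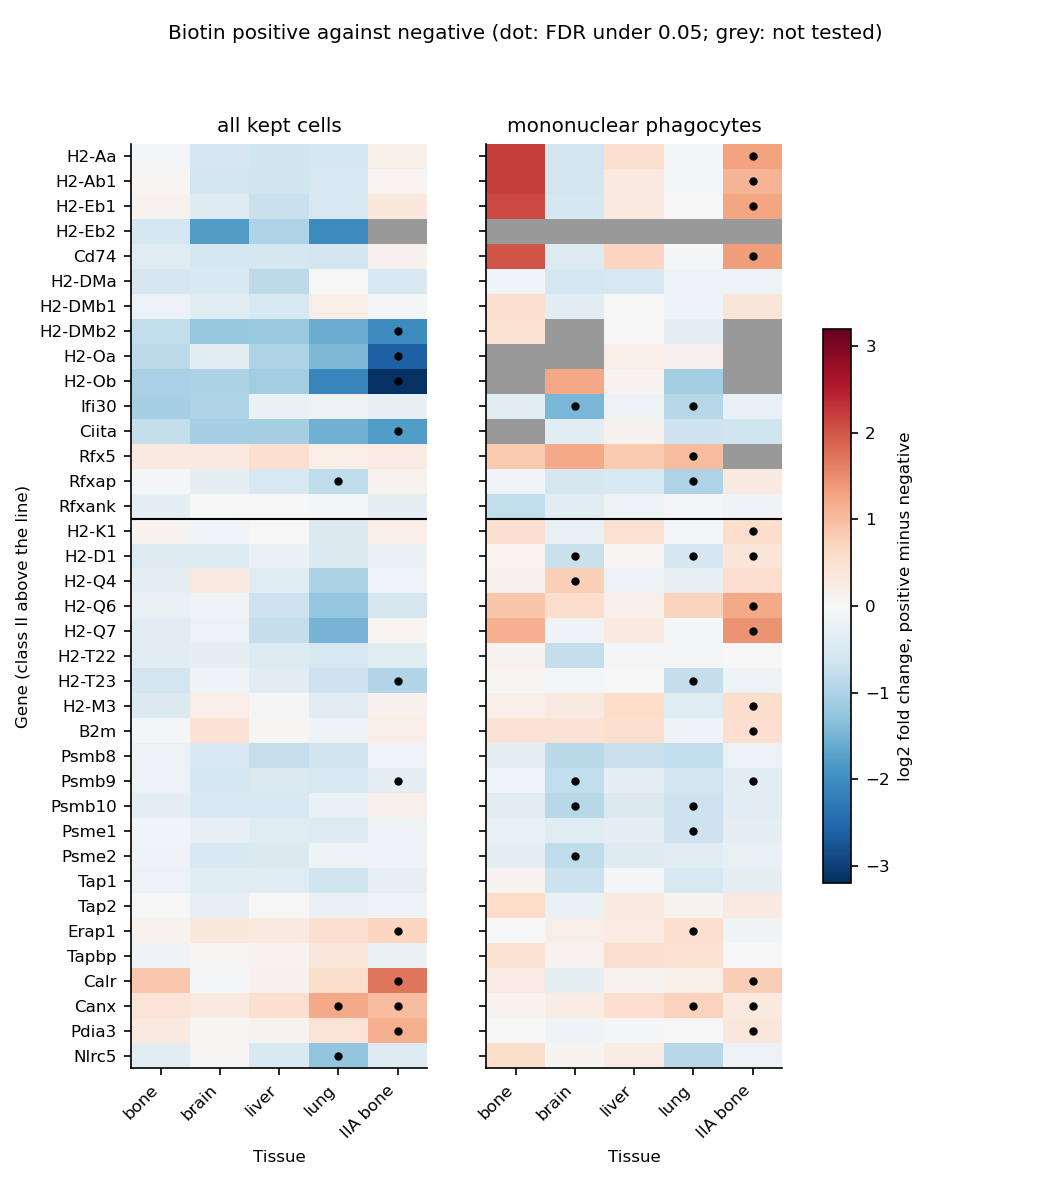
Log2 fold change, positive minus negative, of each of the 37 genes (rows, class II above the line) in each tissue, over all kept cells (left) and in mononuclear phagocytes (right), with a dot where FDR was under 0.05 and grey where a gene was not tested. In phagocytes of IIA bone the class II chains and Cd74 are called higher, while over all kept cells the calls there are on chaperones and Erap1 (higher) and on H2-Ob, H2-Oa, H2-DMb2, Ciita, H2-T23 and Psmb9 (lower).

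Mononuclear phagocytes, here the sum of the monocyte clusters with those of macrophages, alveolar macrophages and microglia, were compared next. In IIA bone 13 of 32 tested genes rose and 1 fell, beside 17% higher and 13.9% lower among all genes. Cd74 was at 1174, 1928, 2165, 2442, 2022 and 2994 CPM in positive replicates 1 to 6 and at 1023, 1279, 680, 1126, 488 and 682 in negative ones. The groups overlapped only through positive replicate 1, and the log2 fold change was 1.33 ± 0.24 (edgeR FDR = 0.000689). All 3 tested class II chains rose with it, H2-Aa by 1.30 ± 0.27, H2-Eb1 by 1.26 ± 0.28 and H2-Ab1 by 1.09 ± 0.25, and each kept its call in all 12 refits without a sample.

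Class I genes were also among those that rose. H2-K1 ranged from 855 to 1167 in positive and from 552 to 893 in negative samples (0.56 ± 0.14, edgeR FDR = 0.00633), and B2m, its light chain, from 1442 to 2181 and from 1098 to 1519 (0.53 ± 0.14, edgeR FDR = 0.00814). Both overlapped only at the edge. H2-Q7 and H2-Q6 rose by 1.44 ± 0.32 and 1.20 ± 0.27; of their sequences, 10.2% of the 90-base windows at the 5′ end of H2-Q7 and 3.41% of those of H2-Q6 occur in H2-Q5, so some reads could belong to that gene. The other genes that rose were Calr (0.80 ± 0.17), H2-M3 (0.57 ± 0.15), H2-D1 (0.38 ± 0.14), Pdia3 (0.37 ± 0.11) and Canx (0.32 ± 0.10), and Psmb9 fell by 0.37 ± 0.13. Pdia3 and Canx lost their calls without negative or positive replicate 3, with FDR up to 0.0697 and 0.0644. H2-D1 kept its call in 3 of 12 refits and Psmb9 in 2 of 12, with FDR up to 0.0977 and 0.127. Ciita, at −0.64, Tap1 at −0.29, Psmb8 at −0.19 and Nlrc5 at −0.18 did not pass. With total UMIs in place of TMM, 10 rose and 1 fell, beside 31.8% of all genes.

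The make-up of the phagocytes moved with the sort. Macrophages were 83.5% ± 15.5 of phagocytes in positive and 19.9% ± 8.04 in negative IIA samples (n = 6 each), and the macrophage class sum of class II genes was 6748 ± 3546 and 6822 ± 3005. When the monocyte clusters were left out, 2 of 29 genes were called, Calr at 0.59 (edgeR FDR = 0.0253) and Pdia3 at 0.43 (0.0468), beside 21.4% of all genes. Cd74 was then at 1316 to 6212, median 2519, in positive and 1046 to 4014, median 2146, in negative samples, overlapping throughout, with a log2 fold change of 0.24, and H2-Aa was at 0.04, H2-Ab1 at −0.17 and H2-Eb1 at −0.37. In monocyte clusters alone, a subset chosen after seeing the data that left 3 positive samples, none of 32 genes was called by edgeR, beside 0.0334% of all genes. Cd74 was at 60.8, 341 and 181 in positive and at 295 to 997 in negative samples (−1.36, FDR = 0.276). The class II genes called higher in all IIA phagocytes were thus not called in either subset.

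**Figure D4:**
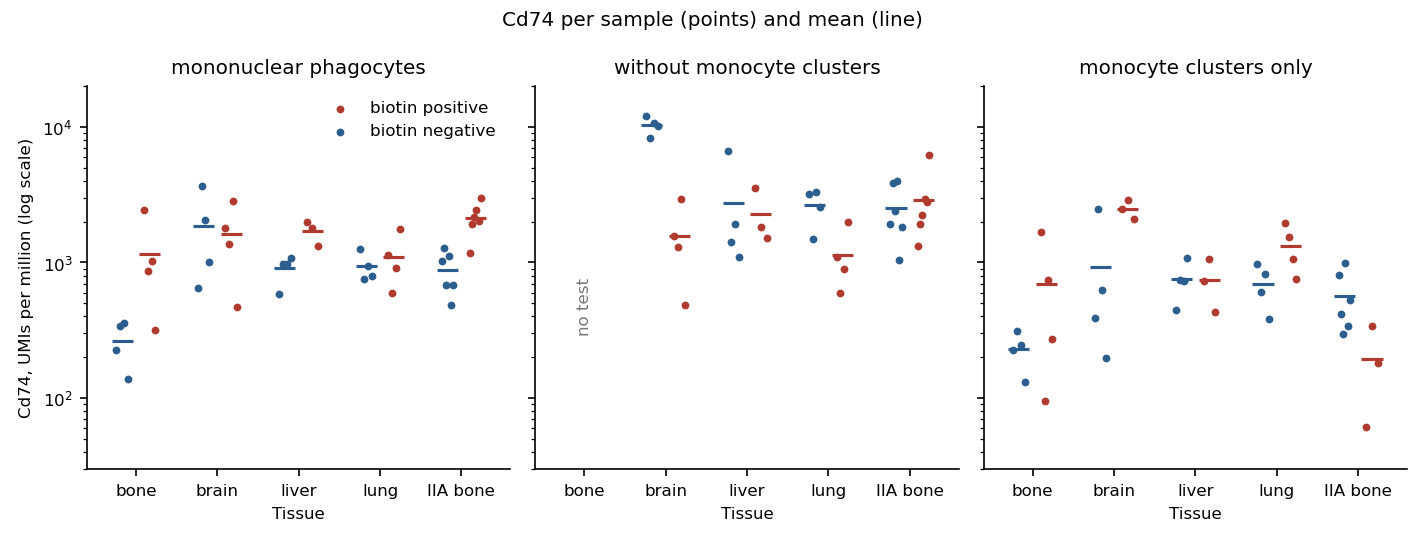
Cd74 in CPM on a log axis, with 1 point per sample and a line at the mean of each sort, in all mononuclear phagocytes, without monocyte clusters, and in monocyte clusters only, for each tissue. In IIA bone Cd74 was called in all phagocytes and in neither subset, and in monocyte clusters 2 of 3 positive samples (60.8 and 181) lie below every negative one (295 to 997). Without monocytes the positive mean lies below the negative one in brain, liver and lung.

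In phagocytes of bone after intracardiac injection the class II genes had higher means in the positive sort but did not pass. Cd74 was at 2420, 866, 1023 and 319 in positive and 226, 338, 357 and 138 in negative samples, so that positive replicate 4 lay within the negative range (log2 fold change 2.02 ± 0.52, edgeR FDR = 0.10). The replicate numbers pair the bone samples, and Cd74 was higher in the positive sample of all 4 pairs, with a log2 fold change of 1.76 in the fit with replicate block (edgeR FDR = 0.0552). That fit called 0 members, beside 1.69% of all genes. H2-Ab1, H2-Aa and H2-Eb1 stood at 2.22, 2.21 and 2.12, with FDR of 0.0966, 0.147 and 0.167. None of 33 genes was called, beside 0.63% of all genes; DESeq2 called 2, H2-Ab1 and Cd74, both higher, beside 2.11% of all genes. Before adjustment 8 of the 33 and 1471 of all 9529 genes passed 0.05. Without positive replicate 4, edgeR called 4 of 34 members, beside 3.62% of all genes, and without positive replicate 2 it called 1 of 35, beside 0.29%. Macrophages were 41.2% ± 34.4 of phagocytes in positive and 1.91% ± 0.992 in negative bone (n = 4 each). Negative samples held too few macrophages for a fit without monocytes, and in monocytes alone Cd74 was at 1669, 95.6, 746 and 271 against 225, 314, 245 and 131 (1.58, FDR = 0.922). Ciita was not tested in bone phagocytes; H2-K1 stood at 0.51, B2m at 0.46, H2-D1 at 0.06, Tap1 at 0.09, Psmb8 at −0.29 and Nlrc5 at 0.57.

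In brain phagocytes 1 of 34 genes rose and 5 fell, beside 17.9% higher and 18% lower among all genes. Ifi30, the antigen thiol reductase, was at 387, 305, 329 and 307 in positive and 919, 583, 675 and 855 in negative samples, without overlap (−1.45 ± 0.19, edgeR FDR = 0.00104). H2-D1 was at 849, 710, 976 and 806 against 1161, 1082, 1275 and 1036, again without overlap (−0.71 ± 0.17, edgeR FDR = 0.0105). Both kept their calls in all 8 refits without a sample. The immunoproteasome and cap subunits Psmb10, Psme2 and Psmb9 fell by 0.90, 0.80 and 0.79, and H2-Q4 rose by 0.77 ± 0.23. These 4 depended on single samples: Psmb10 lost its call in 4 of 8 refits, H2-Q4 in 5, and Psme2 and Psmb9 in 6, and the count of members called fell to 3 without negative replicate 1 or positive replicate 3 or 4 and to 2 without negative replicate 4, beside 28.4%, 32.6%, 29.2% and 25.9% of all genes. For Psme2, 39.4% of the 90-base windows at its 3′ end occur in Psme2b. With total UMIs in place of TMM the split was 3 higher and 1 lower, beside 38.2% of all genes. With the replicate block, which pairs the brain samples, 1 rose and 8 fell, beside 40.9% of all genes, and the calls added were Psmb8 (−0.89, edgeR FDR = 0.00471), Tap1 (−0.71, 0.0222) and H2-T22 (−0.78, 0.0357).

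The class II chains did not pass in brain phagocytes as a whole. Cd74 was at 1808, 1361, 2835 and 470 in positive and 646, 3687, 2053 and 1008 in negative samples, overlapping throughout (−0.44), and H2-Aa, H2-Ab1 and H2-Eb1 stood at −0.59, −0.58 and −0.56. Macrophages and microglia were 92.8% ± 5.85 of positive and 19.6% ± 11.7 of negative phagocytes (n = 4 each). Without monocytes the sorts separated: Cd74 was at 1574, 1300, 2945 and 487 in positive and 12002, 8303, 10734 and 10085 in negative samples. Every negative sample was above every positive one, by a log2 fold change of −2.84 ± 0.46, and H2-Aa, at −3.02 ± 0.48, did the same. Neither passed (edgeR FDR = 0.0926 for both), and none of the 30 members or of the other genes tested was called, a background of 0%; 701 of 5991 genes had an unadjusted p under 0.05.

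These cells were not the same clusters in each sort. Microglia, cluster 32, were 415 of the positive but 32 of the negative phagocytes, while cluster 28, macrophages led by Ccl12, Ptgds and Lyve1, held 854 and 233. Within cluster 28 alone, a subset chosen after seeing the data, H2-Aa was at 633, 364, 2735 and 778 in positive and 8790, 2971, 4615 and 5127 in negative samples, still without overlap (−2.35 ± 0.58, edgeR FDR = 0.0838). H2-DMa, the alpha chain of the loading factor, was at 62.4, 31.9, 194 and 100.2 against 801, 238, 457 and 334 (−2.45 ± 0.53, FDR = 0.0738). H2-Q4, called higher in brain phagocytes as a whole, stood at −0.94 in cluster 28. No gene of 3800 was called in that cluster. In monocytes alone, with 3 positive samples, Cd74 was at 2497, 2905 and 2095 against 392, 2483, 624 and 199 (1.38, FDR = 0.664), so its direction there was opposite and also not called. Ciita (−0.36), B2m (0.47), H2-K1 (−0.25), Tap1 (−0.68), Psmb8 (−0.87) and Nlrc5 (0.08) did not pass in brain phagocytes in the fit without the block.

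In lung phagocytes 3 of 36 genes rose and 6 fell, beside 20.1% higher and 18% lower among all genes. With the replicate block, whose pairing is less sure in lung, 4 rose and 12 fell, beside 5114 of 10228 genes called. The values that follow are from the fit without the block. Canx was at 447, 498, 418 and 326 in positive and 206, 238, 185 and 187 in negative samples, without overlap (0.75 ± 0.15, edgeR FDR = 0.00333), and Erap1 rose by 0.54 ± 0.13. The RFX subunits moved apart: Rfx5 rose by 1.02 ± 0.29, from 2.41, 2.09, 3.78 and 3.33 to 5.73, 9.19, 9.37 and 5.18, and Rfxap fell by 0.98 ± 0.20, from 22.3, 31.8, 31.6 and 35 to 15.6, 18.4, 17.7 and 25.1. Rfx5 did not overlap between the sorts and Rfxap did through positive replicate 4, and Rfx5 lost its call without positive replicate 2 (FDR = 0.0638).

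The other genes that fell in lung phagocytes were Ifi30 (−0.90 ± 0.23), H2-T23 (−0.76 ± 0.21), Psme1 (−0.66 ± 0.18), Psmb10 (−0.66 ± 0.21) and H2-D1 (−0.53 ± 0.18). Psmb10 and H2-D1 each lost the call in 6 of 8 refits, with FDR up to 0.0851 and 0.0927. With total UMIs in place of TMM the split went from 3 higher and 6 lower to 6 higher and 2 lower, beside 44.9% of all genes. Cd74 was at 1143, 600, 916 and 1756 in positive and 1264, 755, 935 and 796 in negative samples, overlapping (−0.05), and H2-Aa, H2-Ab1 and H2-Eb1 stood at −0.03, −0.04 and 0.01. Ciita (−0.65), B2m (−0.11), H2-K1 (−0.07), Tap1 (−0.51), Psmb8 (−0.79) and Nlrc5 (−0.90) did not pass in the fit without the block.

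Without monocytes, 5 of 31 members fell in lung (Cd74, H2-Aa, H2-Ab1, H2-Eb1 and Rfxap), and the others did not pass. Cd74 was at 1103, 593, 889 and 1974 in positive and 3225, 1489, 3283 and 2581 in negative samples, overlapping only between positive replicate 4 and negative replicate 2 (−1.50 ± 0.42, edgeR FDR = 0.0411). H2-Aa fell by 1.61 ± 0.38, H2-Ab1 by 1.63 ± 0.40, H2-Eb1 by 1.78 ± 0.43 and Rfxap by 1.36, beside 11.6% called among all genes. The clusters differed between the sorts here too: alveolar macrophages, cluster 30, held 3773 of the positive and 25 of the negative phagocytes, and macrophage cluster 18 held 828 and 206. Macrophages of all such clusters were 88.5% ± 9.38 of positive and 12.7% ± 7.04 of negative lung phagocytes (n = 4 each). In monocytes alone the class II chains and Cd74 stood higher and were not called, with Cd74 at 1971, 1537, 1053 and 751 against 979, 610, 830 and 381 (0.87, FDR = 0.71) and H2-Eb1 at 1.31 ± 0.29 (FDR = 0.27). Canx, Psme1, H2-D1 and H2-T23, called in all lung phagocytes, changed sign in monocytes alone and were not called.

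In liver phagocytes, 3 positive samples against 4, none of 36 genes was called by edgeR, beside 0% of all genes, and DESeq2 also called none, beside 5.86%. Unadjusted p was under 0.05 for 3 of the 36 and for 2199 of all 10266 genes. Without positive replicate 1, 1 member was called, beside 11.2% of all genes. Cd74 was at 1977, 1806 and 1333 in positive and 583, 979, 975 and 1080 in negative samples, every positive above every negative one (0.69 ± 0.29, edgeR FDR = 0.219). In 8 of the 36 genes the positive samples were all above the negative ones, beside 19% of all genes, so this share is near the background. H2-Aa stood at 0.52, H2-Ab1 at 0.32, H2-Eb1 at 0.31, B2m at 0.54, H2-K1 at 0.48, H2-D1 at 0.03, Ciita at 0.15, Tap1 at −0.03, Psmb8 at −0.72 and Nlrc5 at 0.23. Macrophages were 74.6% ± 28.5 (n = 3) of positive and 20.6% ± 13.2 (n = 4) of negative phagocytes. Without monocytes Cd74 stood at −0.39 and in monocytes alone at −0.26, neither called.

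Neutrophils, B cells and T cells showed no call of a member between the sorts with edgeR, in the fit without the block, in any tissue tested. In neutrophils, no member of the 4 intracardiac tissues had an unadjusted p under 0.05; in brain the fit with replicate block, which pairs those samples, called Psme2 lower, beside 3.74% of all genes. In IIA bone edgeR called 0 of 27 neutrophil members, beside 8.05% of all genes, and DESeq2 called 1, beside 10.7%. An unadjusted p under 0.05 was reached by 3 of these 27 members and by 1991 of all 8949 genes. With the replicate block, edgeR called 4 of the 27 higher there, beside 1052 of 8949 genes. Not all IIA numbers correlated best with their own, so that pairing is less sure. B cells had 0 members at an unadjusted p under 0.05 in bone, brain and lung, 2 of 34 in liver, where 118 of all 5041 genes had one, and 2 of 33 in IIA bone, where 328 of 3996 did. DESeq2 called none in B cells. T cells had 2 of 29 in liver, beside 205 of 4653 genes, and none in the other 3 tissues. With no low-count filter, 4 class II genes (H2-Aa, H2-Ab1, H2-Eb1 and Cd74) were called higher in liver T cells, beside 0.262% of all genes, from 2 positive samples of 28 and 19 T cells against 4 negative ones. T cells were not tested in IIA bone.

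Between tissues, the negative sort was compared within each class with an F test over the 4 tissues. In phagocytes 4 of 36 genes differed, beside 4.71% of all genes, and all 4 were class II: Cd74, H2-Ab1, H2-Aa and H2-Eb1. Cd74 in bone was at 226, 338, 357 and 138. Brain samples had 646, 3687, 2053 and 1008, liver samples 583, 979, 975 and 1080, and lung samples 1264, 755, 935 and 796. No bone sample reached the lowest of any other tissue, and the log2 fold changes over bone were 2.86, 1.83 and 1.97 (edgeR FDR = 0.0086). H2-Ab1 stood at 2.87, 2.18 and 2.03 over bone (FDR = 0.00935), H2-Aa at 2.84, 2.04 and 1.94 (0.0175) and H2-Eb1 at 2.99, 2.12 and 1.85 (0.00909). H2-Aa lost its call without bone replicate 1 (FDR = 0.0578), and the other 3 genes kept theirs in all 16 refits without a sample. With the replicate block, 8 members were called, beside 13% of all genes. Macrophages were 1.91% of these phagocytes in bone and 12.7% to 20.6% in the other tissues. In monocytes alone none was called, beside 3.71% of all genes, with Cd74 at 2.09, 1.79 and 1.75 over bone (FDR = 0.180).

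Neutrophils of the negative sort differed between tissues in 5 of 28 genes, all class I, beside 18.9% of all genes, so this share is near the background. H2-K1 in bone was at 200.1, 103, 135 and 119. Brain samples reached 148, 181, 197 and 130, liver samples 186, 238, 217 and 199.5, and lung samples 329, 232, 245 and 236. Lung lay above all bone and brain samples, and the log2 fold changes over bone were 0.28, 0.55 and 0.81 for brain, liver and lung (edgeR FDR = 0.0241). H2-Q4, a non-classical heavy chain, was at 11.7, 4.02, 6.51 and 4.19 in bone and 20.5, 11.4, 32.3 and 18.8 in lung, a log2 fold change of 1.48 (FDR = 0.0111), and Nlrc5 at 2.68, 3.18, 1.54 and 1.77 against 15.8, 12.2, 5.39 and 4.22, 1.99 (FDR = 0.0205).

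The other 2 genes called in neutrophils, Canx and Pdia3, were lower in lung than in bone. Canx was at 44.2, 43.4, 38.4 and 30.8 in bone and 20.1, 19.8, 10.8 and 11.8 in lung, −1.37 (edgeR FDR = 0.0162), and Pdia3 at 69.4, 88.2, 88.7 and 78.5 against 38.5, 45.4, 43.1 and 42.7, −1.08 (FDR = 0.0094), both without overlap. Pdia3 and H2-Q4 kept their calls in all 16 refits without a sample. Canx lost it without bone replicate 2, H2-K1 without bone replicate 2 or 4 or lung replicate 1, and Nlrc5 without bone replicate 3 or 4 or lung replicate 1 or 2, with FDR up to 0.0518, 0.0775 and 0.0746. The count was 3 without bone replicate 2 or 4 or lung replicate 1, beside 12.9%, 11.9% and 11.6% of all genes, and 8 without brain replicate 2 or liver replicate 1, beside 27.1% and 19.5%. With the replicate block, 12 members were called, beside 37.3% of all genes. The neutrophil clusters also differed between tissues: cluster 11 (led by Retnlg and Prok2) was 4.84% of neutrophils in bone, 41.9% in brain and liver and 45.8% in lung, and cluster 12 (led by Il1b and Ccrl2) was 1.89%, 10.8%, 38.2% and 51.1%. Within cluster 11 or cluster 12 alone, subsets chosen after seeing the data, none was called, beside 0% and 0.0589% of all genes. B cells had none of 36 called, beside 0% of all genes, and 2 (H2-Aa and H2-Eb1) with the block, beside 2.2%, and T cells none of 31, beside 0.401%.

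**Figure D5:**
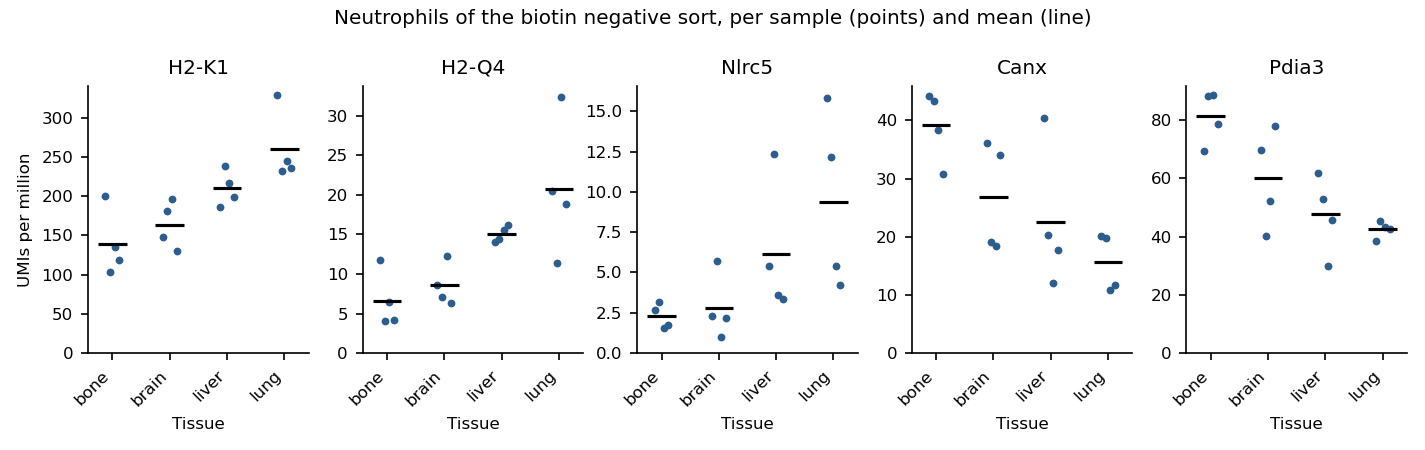
CPM of the 5 class I genes called between tissues in neutrophils of the negative sort, with 1 point per sample and a line at the mean. H2-K1, H2-Q4 and Nlrc5 are higher in lung than in bone, and Canx and Pdia3 are lower.

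Whether the difference between sorts was itself unequal between tissues was tested over all kept cells of the 32 intracardiac samples as an interaction of sort and tissue. None of the 37 genes passed, beside 1.15% of all genes; the smallest FDR was 0.397, for Rfxap. A difference called over all kept cells in one tissue and not in another is therefore not shown to differ between them, and for phagocytes and the other classes this was not tested.

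Other genes of the pathway, from lists that exclude the 37, were counted in the same comparisons. These lists too were chosen with earlier results of these data known. Of 15 genes upstream of CIITA and NLRC5, 4 fell and none rose in lung over all kept cells (Jak1, Ifngr1, Socs1 and Jak2, of interferon gamma signalling), beside 6.8% lower among all genes. In IIA bone 10 of 14 tested fell and 1 rose, beside 23.2% and 27%. In lung phagocytes 5 of 14 fell, beside 18%, Ifngr1 by 1.19 ± 0.24 and the myeloid factor Spi1 by 0.54 ± 0.12 among them. Of 14 genes for class II trafficking, proteases and costimulation, 12 were tested: in brain phagocytes 6 rose and none fell, beside 17.9% and 18% of all genes, among them the cathepsin inhibitor Cst3 (2.54 ± 0.47), the protease Lgmn (1.93 ± 0.50) and the costimulator Cd86 (1.62 ± 0.18). In IIA phagocytes 5 rose, among them Lgmn (3.28 ± 0.30) and Ctsl (3.01 ± 0.44), and 2 fell, March1 (−1.03 ± 0.23), which marks class II for turnover, and Icosl (−1.27 ± 0.28), beside 17% higher and 13.9% lower. Of 16 further class I and lipid or metabolite presenting genes, Mr1 rose in lung phagocytes (2.55 ± 0.32) with Cd1d1 (2.38 ± 0.37), beside 20.1%, and in brain phagocytes the constitutive proteasome subunits Psmb5, Psmb6 and Psmb7 fell, beside 18%. None of these genes was called in bone or liver. The make-up of the phagocytes differed between the sorts. Macrophage classes, with microglia, were 92.8% of positive and 19.6% of negative brain phagocytes. They were 88.5% and 12.7% in lung and 83.5% and 19.9% in IIA bone. The part of that make-up in the values of these pathway genes was not tested.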

How the data were processed

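The authors deposited counts of UMIs per gene and cell as sparse matrices, made with Cell Ranger (versions 6.1.2 and 7.1.0, per the file headers) on mm10, and used Seurat, per the submitters' processing notes; whether intronic reads were counted is not given in the sources used here. The deposited hashtag counts, matched to the labelled tags by number, assigned 22685 of 26666 IIA barcodes, with at least 10 counts and 3 times the next tag.

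Cells with at least 500 UMIs, 200 genes and at most 15% mitochondrial UMIs were kept. Clustering used scanpy 1.11.5 (2000 variable genes without the members, 30 components, 15 neighbours, Leiden resolution 1), giving 33 intracardiac and 21 IIA clusters, named from 24 marker lists. Doublets were kept in, and an alternative left out the 5% of cells with the highest Scrublet scores. UMIs were summed per sample with at least 10 cells of a class (20 for levels) and tested with edgeR 4.0.16 in R 4.3.3 (TMM, filter on low counts, quasi-likelihood test, Benjamini-Hochberg), with DESeq2 1.42.0 as an alternative. The tests were tried on simulated data. Intervals were not computed, and depth limits the low genes.

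Same-numbered samples deviated together in bone (r = 0.448 to 0.738), brain (0.213 to 0.629) and liver (0.256 to 0.501), so their numbers pair them; the pairing is from the data, since the labels give only numbers. The genes named are every member called, and H2-Aa, H2-Ab1, H2-Eb1, Cd74, Ciita, B2m, H2-K1, H2-D1, Tap1, Psmb8 and Nlrc5 whether called or not. The members and lists were chosen with earlier results of these data known. The intracardiac samples shared 341 barcodes over 384 pairs with different numbers and 0 over 112 pairs with the same number.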

Additional observations from a re-analysis of the deposited data

Results flagged for a closer look

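In 8 of 126 groups of 4 to 10 samples, 1 sample stood apart from the others in a class sum; chance alone flags about 1 in 20 groups. All values are in CPM.

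For class II, macrophages of negative liver replicate 1 had 24430.5, against 3130 to 4740 in the others, from 21 cells. Macrophages of positive brain replicate 3 had 16014, against 2608 to 4704, from 45 cells, and those of positive IIA replicate 6 had 13547, against 3553 to 6848, from 35 cells. Monocytes of negative brain replicate 2 had 5639, against 1469 to 2182, from 235 cells. Alveolar macrophages of positive lung replicate 4 had 4609, against 1272 to 1808, from 100 cells. Granulocyte precursors of negative bone replicate 1 had 1144, against 474 to 548, from 171 cells. Neutrophils of positive lung replicate 4 had 57.9, against 167 to 189, from 269 cells. For class I, neutrophils of positive brain replicate 3 had 2880, against 2505 to 2567, from 63 cells.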

How the results depend on the processing

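Of 42 called log2 fold changes, 653 of 817 alternatives kept direction and call, 146 lost the call and 18 changed sign. Of 470 alternative counts of called members, 427 stayed within 1.5 times. The tissue refits without a sample and the cluster subsets were chosen after seeing the data. The cause of a change was not tested, and subsets also test fewer cells.

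Over all kept cells DESeq2 called 3 members in brain and 9 in lung, beside 11.1% and 25.1% of all genes. The replicate block called 3 and 14 (1 higher and 13 lower in lung), beside 6.89% and 20.8%, and no low-count filter 5 of 37 in lung, beside 9.47%. In phagocytes, bone had 2 with DESeq2 (2.11% of all genes) and 4 of 37 with no filter (3%), and lung 16 of 36 with the block (4 higher and 12 lower), beside 50%. Without monocyte clusters the counts were 0 in brain, 5 in lung and 2 in IIA bone, and 0 in monocytes alone in each and in brain cluster 28. Neutrophils had 1 with the block in brain (3.74%), and in IIA bone 1 with DESeq2 (10.7%), 4 of 27 with the block (11.8%) and 1 with members among the clustering genes (13.3%). Liver T cells had 4 with no filter (0.262%). Between tissues the block gave 8 in phagocytes (13%), 12 in neutrophils (37.3%) and 2 in B cells (2.2%), monocytes alone gave 0, and neutrophil clusters 11 and 12 each gave 0. In lung 3 of 4 numbers and in IIA bone 3 of 6 correlated best with their own, so the pairing behind the block is less sure there than in bone, brain and liver. The interaction was fitted once.

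Leaving out 1 sample gave 0 to 1 called members over all kept cells in brain, 1 to 12 in lung (10.1% to 18.9% of all genes), 8 to 15 in IIA bone (44% to 53.4%), and 0 to 0 in bone and liver. In phagocytes it gave 0 to 4 in bone (0% to 3.62% of all genes), 2 to 7 in brain (25.9% to 34%), 0 to 1 in liver (0% to 11.2%), 7 to 13 in lung (31% to 39.5%) and 10 to 14 in IIA bone (21.9% to 33.3%). It gave 0 to 0 in every test of neutrophils, B cells and T cells between sorts. Between tissues it gave 3 to 5 in phagocytes, 3 to 8 in neutrophils and 0 in B and T cells.

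Signs changed in brain for H2-D1 (0.34 in monocytes alone) and H2-Q4 (−0.43 without monocytes, −0.94 in cluster 28). In lung monocytes alone they changed for Canx (−0.026), Psme1 (0.021), H2-D1 (0.19) and H2-T23 (0.0084), and without monocytes for H2-Eb1 (−1.78). In IIA bone they changed without monocytes for H2-Ab1 (−0.17) and H2-Eb1 (−0.37), and in monocytes alone for B2m (−0.25), H2-K1 (−0.17), H2-Ab1 (−1.33), H2-Aa (−1.41), H2-Eb1 (−2.06), H2-D1 (−0.28), H2-Q7 (−0.43), H2-M3 (−0.12) and Cd74 (−1.36).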
